A study of Rattus norvegicus with 13 samples.

Results

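Lipid uptake by the left ventricle was described through 8 genes: Lpl, Gpihbp1, Angptl4, Cd36, Fabp3, Fabp4, Slc27a1 and Vldlr. They were chosen by name, as the spots that are not controls and carry 1 of these gene names on the array, and all probes of each were taken. This gave 9 probes for 8 genes, of 30367 probes and 26115 gene names on the array, since Cd36 has 2 probes. All rats were male and 45 weeks old, and RNA came from the left ventricle. One group is labelled ADBR3 overexpressing, for the β3-adrenergic receptor, a receptor for catecholamines, and was set against wild-type (WT) males of that age. The comparison held 5 overexpressing rats (hearts 1, 3, 5, 6 and 7) and 4 WT rats (hearts 1, 3, 4 and 6), measured on 13 arrays of 1 colour. How overexpression was brought about, in which cells, and in which strain is not stated in the labels.

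The working heart takes most of its fuel from fatty acids, which reach it bound to albumin or packed as triglyceride in lipoproteins. Lipoprotein lipase (Lpl) is made mainly by the muscle cells and is carried by Gpihbp1, a protein of capillary endothelial cells, to the vessel lumen, where it splits triglyceride. Angptl4 is a secreted inhibitor of that enzyme, and Vldlr is a receptor that binds triglyceride-rich lipoproteins. Cd36 and Slc27a1 (also called FATP1) take the freed fatty acids across cell membranes, and the binding proteins Fabp3, in muscle cells, and Fabp4, in endothelial cells and adipocytes, carry them inside the cell.

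Each value below rests on the probe sequences that stand for these genes on the array. They are shown because the reading of each gene is the binding of labelled RNA to 1 or 2 such oligonucleotides of 60 bases. Probes are given 5′ to 3′ as the scanner files hold them, with positions on rat build rn4, the build named in the file headers. The 4 probes of Vldlr, Fabp3, Fabp4 and the upstream site of Cd36 are whole, and the other 5 are shown by 30 bases each, the last 30 for Angptl4 and the first 30 for the rest. Capitals mark the hexamer AATAAA, the common polyadenylation signal, which the letters of 1 of the 9 probes contain.
Vldlr, chr1:230694104-230695049, plus strand: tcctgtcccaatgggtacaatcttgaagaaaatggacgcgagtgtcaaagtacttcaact
Fabp3, chr5:149344170-149344229, plus strand: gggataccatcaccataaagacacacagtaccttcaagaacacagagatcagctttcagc
Fabp4, chr2:93536175-93538589, plus strand: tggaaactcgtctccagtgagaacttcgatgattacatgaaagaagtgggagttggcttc
Cd36 upstream, chr4:13522273-13522332, plus strand: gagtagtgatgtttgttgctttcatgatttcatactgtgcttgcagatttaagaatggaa
Cd36 downstream, chr4:13525426-13525485, plus strand: gctcagccgcaactaatgtaacttcagaga
Gpihbp1, chr7:113539631-113539803, plus strand: gacacaggtgtcctgacgacctactccatg
Lpl, chr16:22533294-22533353, minus strand: tttaccacgtaaaagtcgaaattactagga
Angptl4, chr7:16261624-16261683, minus strand: caacattcttacAATAAAaacaacctcaga
Slc27a1, chr16:18786624-18786683, plus strand: ccaggcatcatctctggaggccctaacctt

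The array's annotation assigns each probe to the messenger RNA of its gene. The probes of Vldlr, Fabp4 and Gpihbp1 span 946, 2415 and 173 bases of the genome with 60 bases of sequence, so each crosses an intron, and the 2 Cd36 probes start 3153 bases apart. Lpl is printed on 10 spots of each array, the upstream Cd36 probe on 1 spot, and the others on 2.

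A level here is the log2 processed spot signal less the log2 75th percentile of its array, so a level of 0 equals that percentile. Levels of different probes were not set against each other, since probes differ in how well they bind. The 75th percentile lay between 760.4 and 908.7 units of brightness, 55.2% to 67.8% of spots were well above background, and 0 spots were saturated. All 9 probes were well above background on 7 of 7 overexpressing and 6 of 6 WT arrays, so no member was lost to the filter on dim probes. The heart muscle markers Myh6 and Tnnt2, which check the tissue label, had levels of 9.17 ± 0.0569 and 8.95 ± 0.113 in overexpressing rats (SD, n = 5), against 9.18 ± 0.177 and 8.98 ± 0.249 in WT rats (SD, n = 4). The labels do not say how the rats of a group are related.

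None of the 8 genes changed past the threshold of an adjusted p of 0.05 in the fit over 15367 genes, of which 0.00651% (1 gene) passed (0 members; limma, Benjamini-Hochberg adjustment over all genes). At an unadjusted p under 0.05 there were 2 of the 8, Gpihbp1 higher and Vldlr lower in overexpressing rats, against 9.44% of all genes (3.15% higher and 6.29% lower, so that 33.4% of these were higher, or 62.6% under median scaling). With slide as a block it was 0 of the 8, in a fit that rests only on rats of slides holding both groups. The share of all genes in that fit is not given, so this count cannot be set beside 9.44%. Over probes the count at an unadjusted p under 0.05 in the main fit was 2 of the 9, against 9.2% of all kept probes. The groups were fully apart at 1 of the 8, Vldlr, against 3.52% of all genes (1.22% higher and 2.3% lower). Of the 8 differences 5 were above 0, beside 46.7% of all genes, and their median was 0.014, beside -0.0089 over all genes. The differences of Angptl4, Cd36, Fabp3 and Fabp4 took the other sign under some of the alternatives. For Cd36, Fabp3 and Fabp4 the 95% intervals of the difference all lay between -0.14 and 0.16 on the log2 scale, and for Angptl4 the interval ran from -0.59 to 1.14.

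**Figure D1:**
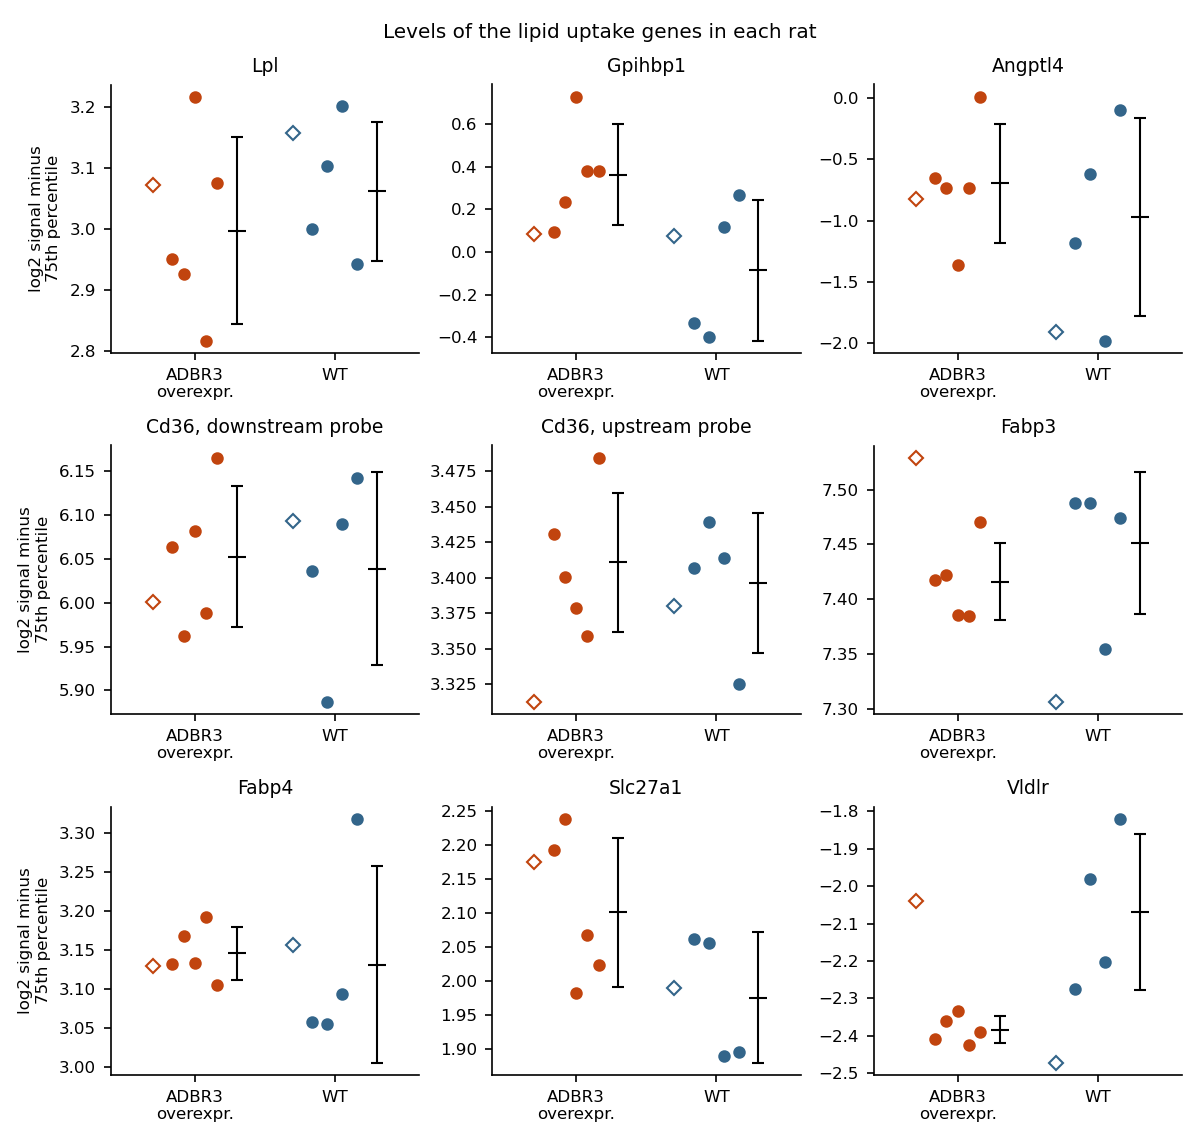
Level of each probe (y axis, log2 signal minus the 75th percentile of the array) in ADBR3 overexpressing rats (left, n = 5) and WT rats (right, n = 4). Filled points are rats, the bar to their right is the mean ± SD, and open diamonds are the replicate hybridization of each group, which is outside the mean. The y axes differ between panels and do not start at 0. Vldlr is the panel in which the rats of the 2 groups are apart and both diamonds lie on the side of the other group.

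Gpihbp1, the endothelial anchor of lipoprotein lipase, had a higher mean in overexpressing rats and did not pass the test. Its level was 0.093, 0.23, 0.73, 0.38 and 0.38 in overexpressing rats 1, 3, 5, 6 and 7, against -0.33, -0.40, 0.12 and 0.27 in WT rats 1, 3, 4 and 6. All overexpressing rats lay above WT rats 1 and 3, but overexpressing rats 1 and 3 lay below WT rat 6, so the groups overlapped. The mean was 0.36 ± 0.236 (SD, n = 5) in overexpressing rats and -0.087 ± 0.33 (SD, n = 4) in WT rats. The difference of 0.45 ± 0.169 (SE), or 1.37-fold with a 95% interval of 1.05 to 1.78, had an unadjusted p of 0.0261 and an adjusted p of 0.483 by limma. It was 0.26, 0.16 and 0.32 within slides 1, 3 and 4 and 0.14 and 0.45 within the 2 scan days. Of these, slide 1 and day 1 each rest on WT rat 4 alone and slide 4 on the WT replicate hybridization. Slide 3 and day 2 count both labelings of WT rat 1, a low rat, at -0.35 and -0.32, and so lean towards it. A fit with a term for each slide took rat 1 of each group by its first labeling alone. In that fit the difference of Gpihbp1 was 0.15 (limma, unadjusted p = 0.522, adjusted p = 0.977). Without slide terms its unadjusted p by limma was 0.0549 without overexpressing rat 5, 0.0767 without WT rat 1 and 0.08 without WT rat 3. Slides 2 and 5 hold arrays of 1 group each, and without the WT replicate hybridization slide 4 holds overexpressing rats only. The fit with slide terms thus rests on overexpressing rats 1 and 7 against WT rats 1, 4 and 6. The part of slide in the result was not tested further.

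Lpl, the lipase itself, had close group means. Its level was 2.95, 2.93, 3.22, 2.82 and 3.08 in overexpressing rats, against 3.00, 3.10, 3.20 and 2.94 in WT rats. The highest overexpressing rat, rat 5, and the highest WT rat, rat 4, had almost the same level, and the groups overlapped over most of their range. The means were 3.00 ± 0.153 (SD, n = 5) in overexpressing rats and 3.06 ± 0.114 (SD, n = 4) in WT rats. The difference was -0.064 ± 0.0891 (SE; limma, adjusted p = 0.836), with a 95% interval from -0.27 to 0.14 on the log2 scale.

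Angptl4, the inhibitor of the lipase and a gene that fatty acids induce through PPAR receptors, varied more among the rats of a group than between the group means. Its level was -0.65, -0.73, -1.36, -0.73 and 0.014 in overexpressing rats, against -1.18, -0.62, -1.99 and -0.090 in WT rats. Overexpressing rat 7 and WT rat 6 were high and WT rat 4 was low, and the WT rats spanned almost the whole range. The means were -0.69 ± 0.488 (SD, n = 5) in overexpressing rats and -0.97 ± 0.811 (SD, n = 4) in WT rats. The difference of 0.28 ± 0.382 (SE; limma, adjusted p = 0.835) had a 95% interval from 0.666-fold to 2.20-fold. It was 2.00 within slide 1, where overexpressing rat 7 faced WT rat 4, 0.12 within slide 3 and 0.94 within slide 4. Within the scan days it was 1.54 and 0.092. Scan day 1 also rests on WT rat 4 alone. Slide 4 rests on the WT replicate hybridization, at -1.91, whose rat is unnamed and may be WT rat 4. These differences are thus not independent. They are taken between means over arrays, so slide 3 and scan day 2 count both labelings of WT rat 1. On slide 3 overexpressing rat 1 read -0.70, against -1.12 and -1.24 for WT rat 1 and -0.090 for WT rat 6. The sign on slide 3 depends on counting WT rat 1 by both labelings. Without WT rat 4 the difference between the group means was -0.063, so its sign rested on that rat.

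Vldlr, the receptor for triglyceride-rich lipoproteins, was the 1 member whose rats were fully apart. Its level was -2.41, -2.36, -2.33, -2.42 and -2.39 in overexpressing rats, against -2.28, -1.98, -2.20 and -1.82 in WT rats. The overexpressing rats lay close together below every WT rat, and WT rats 3 and 6 were the highest. The mean was -2.38 ± 0.0362 (SD, n = 5) in overexpressing rats and -2.07 ± 0.208 (SD, n = 4) in WT rats. The difference of -0.31 ± 0.0899 (SE), a ratio of 0.805 with a 95% interval of 0.699 to 0.926, had an unadjusted p of 0.00676 and an adjusted p of 0.373 by limma. A fit with a term for each slide, which rests on the same rats and labelings as that of Gpihbp1, gave -0.25 (limma, unadjusted p = 0.164, adjusted p = 0.955).

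The repeat arrays did not keep the Vldlr groups apart. The replicate hybridization of an overexpressing rat, heart 4, read -2.04, above every other overexpressing array, and that of a WT rat, heart 5, read -2.47, below every other WT array. Within slide 4, which holds both, the difference was 0.21, while it was -0.19 and -0.22 within slides 1 and 3 and -0.21 and -0.12 within the scan days. With the 2 replicate hybridizations added as samples the difference was -0.18 (limma, unadjusted p = 0.151), in a fit that counts a repeat array of each group as a rat. The probe is dim, with 161 to 185 units on overexpressing arrays and 157 to 256 units on WT arrays. Its paired spots on an array differed with a median SD of 0.147, for single spots. The SD between rats of a group was 0.139, for levels averaged over spots, so these SDs are not like for like.

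**Figure D2:**
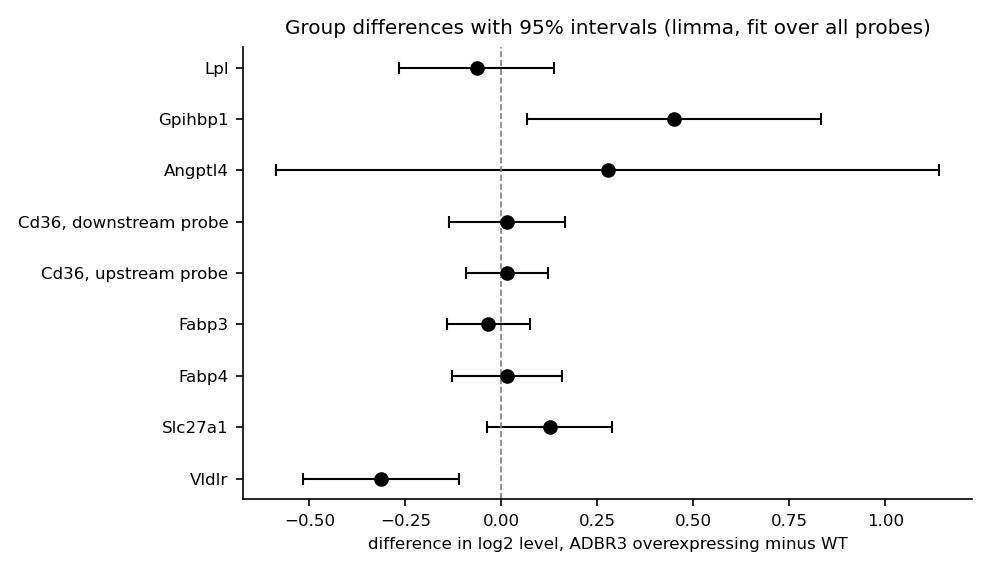
Difference in log2 level, ADBR3 overexpressing minus WT rats (x axis), for each of the 9 probes (rows), with 95% intervals from limma fitted over all 17587 kept probes. The intervals of Gpihbp1 and Vldlr lie on 1 side of 0 before adjustment, those of the other 7 probes include 0, and that of Angptl4 is the widest.

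Cd36, the main fatty acid translocase of the heart, had nearly equal means in both groups, and its 2 probes gave nearly the same difference. On the downstream probe the level was 6.06, 5.96, 6.08, 5.99 and 6.17 in overexpressing rats, against 6.04, 5.89, 6.09 and 6.14 in WT rats. The groups overlapped, with WT rat 3 the lowest and overexpressing rat 7 the highest of the 9 rats. The difference was 0.014 ± 0.0667 (SE; limma, adjusted p = 0.965), with a 95% interval of 0.909-fold to 1.12-fold. The upstream probe, at 3.41 ± 0.0492 in overexpressing rats (SD, n = 5) and 3.40 ± 0.0493 in WT rats (SD, n = 4), differed by 0.015 ± 0.0476 (SE; limma over all probes, of which 0.00569% passed, adjusted p = 0.945). Its 95% interval of 0.938-fold to 1.09-fold is the narrower of the pair.

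Slc27a1, the fatty acid transport protein of the plasma membrane of muscle, was slightly higher in overexpressing rats without passing the test. Its level was 2.19, 2.24, 1.98, 2.07 and 2.02 in overexpressing rats, against 2.06, 2.06, 1.89 and 1.89 in WT rats. Overexpressing rats 1 and 3, and rat 6 by a small margin, lay above all WT rats, and overexpressing rats 5 and 7 lay among them. The difference was 0.13 ± 0.0718 (SE; limma, unadjusted p = 0.114, adjusted p = 0.591), or 1.09-fold, with a 95% interval from -0.037 to 0.29 on the log2 scale. It was above 0 within slides 1, 3 and 4, at 0.13, 0.17 and 0.085, and within both scan days, at 0.27 and 0.087, values that share rats and are not independent.

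Fabp3, the fatty acid binding protein of heart muscle, varied little between rats. Its level was 7.42, 7.42, 7.39, 7.38 and 7.47 in overexpressing rats, against 7.49, 7.49, 7.35 and 7.47 in WT rats. WT rat 4 was the lowest of all 9 rats and the other 3 WT rats lay above the highest overexpressing rat. The difference was -0.035 ± 0.0474 (SE; limma, adjusted p = 0.83), with a 95% interval of 0.906-fold to 1.05-fold. A signal of 140623 to 162531 units on overexpressing arrays and 137410 to 160915 units on WT arrays was not marked saturated, though a bright probe can compress small differences and this was not tested.

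Fabp4, the binding protein of capillary endothelium and adipocytes, differed by 0.014 ± 0.063 (SE; limma, adjusted p = 0.96), with a 95% interval of 0.915-fold to 1.11-fold. Its level was 3.13, 3.17, 3.13, 3.19 and 3.11 in overexpressing rats, against 3.06, 3.06, 3.09 and 3.32 in WT rats. WT rat 6 stood above all other rats, and the remaining 3 WT rats stood below all overexpressing rats. Without WT rat 6 the difference was 0.077 (limma, unadjusted p = 0.143). In bulk tissue such as this, fewer cells of a type and less RNA per cell cannot be told apart.

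The genes differed in how much they varied between rats of a group. The SD within groups was 0.646 for Angptl4, larger than that of 97.9% of the 15367 genes, and 0.281 for Gpihbp1, larger than that of 84.0%. It was 0.0499 for Fabp3, with a smaller SD in only 4.2% of genes, against a median of 0.133 over all genes. From the lowest to the highest of the 9 rats, Angptl4 spanned 2.00 on the log2 scale, Gpihbp1 1.13, Vldlr 0.604, and Fabp3 0.134. The 2 labelings of rat 1 give a part of the technical side of this spread. In the WT rat both lie on slide 3 and scan day 2, so slide and day do not enter. In the overexpressing rat they lie on different slides and days. For Angptl4 the labelings differed by 0.095 in the overexpressing and by -0.12 in the WT rat, and for Gpihbp1 by 0.13 and 0.035. Both genes varied more between rats than between these labelings. For Fabp3 the labelings differed by 0.17 and 0.020 and for Vldlr by -0.14 and 0.00077, as much in the overexpressing rat as the SD between rats or more.

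The 8 genes did not vary as 1 group across the 9 rats. Of the 28 pairs 15 had a Pearson's r above 0, none had an unadjusted p under 0.05 (0 of 28), and the smallest adjusted p was 0.582 (exact permutation over pairings, Benjamini-Hochberg over 28 pairs). Lpl and its carrier Gpihbp1 had an r of 0.0656 and a Spearman's rho of 0 (exact permutation p = 0.864 and 1, adjusted p = 0.94 and 1). The highest r was 0.647 between Angptl4 and Fabp3 (exact permutation p = 0.0596, adjusted p = 0.582), with a rho of 0.6 (exact permutation p = 0.0968), and without the 2 rats farthest from the median of Angptl4 it was 0.333. Over the 6 rats with a scan day 2 array, without those 2 and with overexpressing rat 1 averaged over both days, it was 0.342. The lowest was -0.557 between Gpihbp1 and Fabp3 (exact permutation p = 0.126, adjusted p = 0.582), with a rho of -0.467 (exact permutation p = 0.213) and an r of -0.0427 without the 2 rats farthest from the median of Gpihbp1. With the group means removed, 15 of the 28 were again above 0, and the values changed for some pairs. The r of deviations, given as a description without a test, was then lowest at -0.879 between Gpihbp1 and Slc27a1, whose r was -0.165 before. It was highest at 0.811 between Angptl4 and Fabp3, followed by 0.699 between Fabp4 and Vldlr, whose r without the 2 rats farthest from the median of Fabp4 was -0.672. All values of a rat share its labelled RNA, and for most rats a single array.

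Among 11031 other gene symbols those with profiles most like that of Gpihbp1 over the 9 rats included Fbxo25 and Emc3, with Pearson's r of 0.967 and 0.964. Those most like Lpl were Tomm70a, a receptor for import into mitochondria, Cnnm4 and Nsun4, with r of 0.962, 0.947 and 0.924. Picked as the highest of many, they are a description and carry no test. Without the 2 rats farthest from the median the r was 0.928 for Fbxo25 and 0.867 for Emc3, and 0.85 to 0.903 for those like Lpl.

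Of 27 cofactors, inhibitors and maturation factors of the lipase 20 were tested, Lpl, Gpihbp1 and Angptl4 among them, of which 9 were higher and 11 lower in overexpressing rats and none was past the threshold (limma found 0, with 4 whose unadjusted p was under 0.05). Their median difference was -0.020. The 4, Gpihbp1 among them, stand beside 9.44% of all genes, and the 9 higher beside 46.7%. Calr, a chaperone of the endoplasmic reticulum, was at 1.49 ± 0.323 in overexpressing rats (SD, n = 5) and 1.93 ± 0.186 in WT rats (SD, n = 4), a difference of -0.44 (limma, adjusted p = 0.483). The groups were fully apart at Calr, and in the other direction at Furin, a protease that cleaves Lpl, with a difference of 0.10 (limma, adjusted p = 0.526), beside 3.52% of all genes. Furin was singled out after its values were seen. Apoa5, an apolipoprotein that favours lipolysis, differed by 0.44 and was well above background on 7 of 7 overexpressing and 5 of 6 WT arrays (limma, adjusted p = 0.497). Lipa, the lysosomal acid lipase, differed by -0.25 (limma, adjusted p = 0.51).

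Of 20 lipoprotein receptors and regulators 13 were tested, with Vldlr and Gpihbp1 among them. There were 10 higher and 3 lower, with a median of 0.041, beside 46.7% higher over all genes. With limma 0 were past the threshold and 3 had an unadjusted p under 0.05, against 9.44% of all genes. The 3 were the members Vldlr and Gpihbp1, described above, and Lrp1. Lrp1, a large endocytic receptor, was at -1.24 ± 0.146 in overexpressing rats (SD, n = 5) and -1.48 ± 0.0925 in WT rats (SD, n = 4), a difference of 0.24 (limma, adjusted p = 0.445). Lrp8, a close homologue of Vldlr, differed by 0.45 and was well above background on 7 of 7 overexpressing and 5 of 6 WT arrays (limma, adjusted p = 0.541). Sort1, the sorting receptor sortilin, differed by 0.13 (limma, adjusted p = 0.562).

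Of 26 fatty acid transporters, binding proteins and acyl-CoA synthetases 17 were tested, 4 of the 8 members included, 9 higher and 8 lower, with a median of 0.00055. With limma 0 were past the threshold and 0 had an unadjusted p under 0.05, against 9.44% of all genes. The genes at both ends of the list were dim on some arrays or varied widely. Slc27a2, a very long chain acyl-CoA synthetase, differed by -0.85 and was well above background on 5 of 7 overexpressing and 5 of 6 WT arrays (limma, adjusted p = 0.549). Acsbg1, an acyl-CoA synthetase best known from brain, was at 0.14 ± 1.98 in overexpressing rats (SD, n = 5) and -1.22 ± 0.217 in WT rats (SD, n = 4), a difference of 1.36 within the spread of the overexpressing rats (limma, adjusted p = 0.633). Acsl4 differed by -0.13 (limma, adjusted p = 0.65).

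Of 16 regulators of fatty acid passage through endothelium 14 were tested, 7 higher and 7 lower, with a median of -0.011. With limma 0 were past the threshold and 3 had an unadjusted p under 0.05, against 9.44% of all genes. Meox2 and Tcf15, partner transcription factors of capillary endothelium that are known in mice to promote fatty acid transport, were among them. Meox2 was at -0.17 ± 0.191 in overexpressing rats (SD, n = 5) and 0.075 ± 0.106 in WT rats (SD, n = 4), a difference of -0.25 (limma, unadjusted p = 0.0373, adjusted p = 0.507). Tcf15 was at 2.40 ± 0.152 in overexpressing rats (SD, n = 5) and 2.62 ± 0.138 in WT rats (SD, n = 4), a difference of -0.22 (limma, unadjusted p = 0.0443, adjusted p = 0.523). Apln, the peptide ligand apelin, differed by 0.16 (limma, adjusted p = 0.526).

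**Figure D3:**
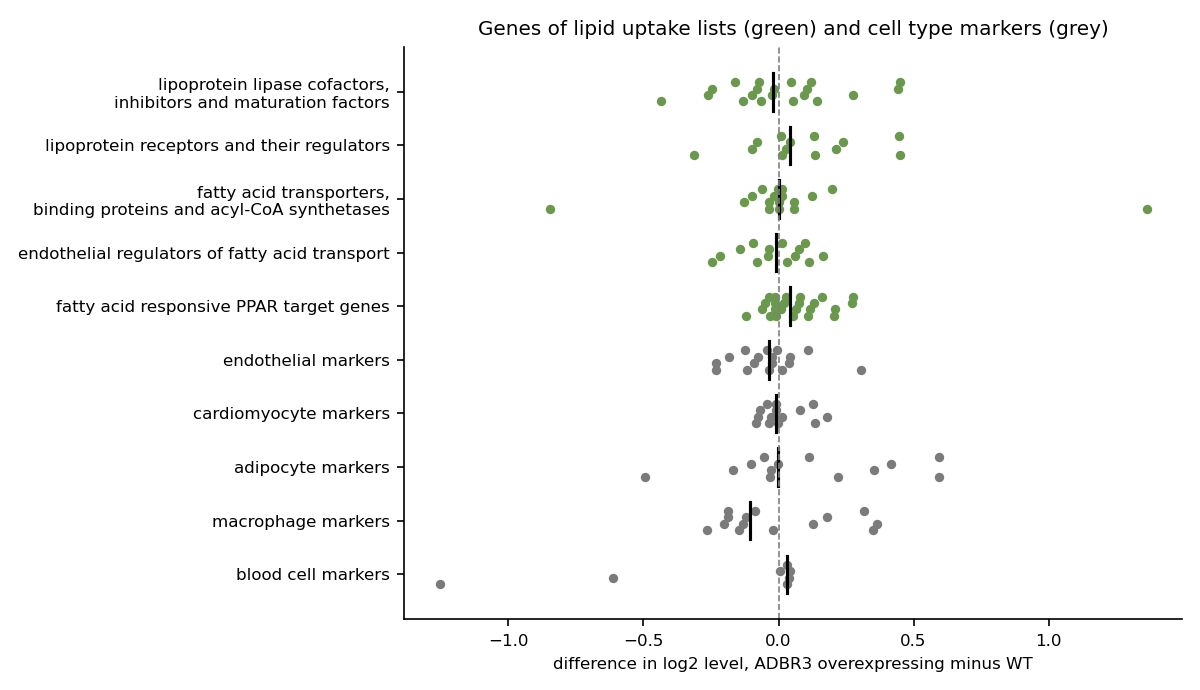
Difference in log2 level, ADBR3 overexpressing minus WT rats (x axis), of each tested gene (points) in the lists of lipid uptake (green rows) and cell type markers (grey rows), with the median of a list as a black bar. List medians lie between -0.105 and 0.042, close to the median of -0.0089 over all genes.

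Of 27 PPAR target genes 24 were tested, Angptl4 among them, with a median of 0.042. In overexpressing rats 15 were higher and 9 lower, beside 46.7% higher over all genes. With limma 0 were past the threshold and 1 had an unadjusted p under 0.05, against 9.44% of all genes. Plin5, a coat protein of lipid droplets in muscle, was at -0.32 ± 0.12 in overexpressing rats (SD, n = 5) and -0.53 ± 0.163 in WT rats (SD, n = 4), a difference of 0.21 (limma, adjusted p = 0.525).

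Since Angptl4 varied so widely, its level was set against the other 23 tested PPAR targets across the 9 rats, a comparison chosen after its values were seen. Of the 23, 18 had an r above 0, 2 had an unadjusted p under 0.05, and 0 passed after adjustment (exact permutation over pairings, smallest adjusted p = 0.215). Without the 2 rats farthest from the median of Angptl4, 11 of the 23 had an r above 0. Txnip, a thioredoxin-binding inhibitor, had an r of 0.81 (exact permutation p = 0.00934, adjusted p = 0.215) and a rho of 0.833 (exact permutation p = 0.00827). Without the 2 rats farthest from the median of Angptl4 its r was 0.403. Leaving out the extremes of Angptl4 narrows its range, which can itself lower r. Whether the relation of Txnip rests on those rats was not tested. Pdk4, the kinase that shuts off pyruvate oxidation, had an r of 0.747 (exact permutation p = 0.0198, adjusted p = 0.228) and a rho of 0.75 (exact permutation p = 0.0255), and 0.857 without the 2 rats. Taken as deviations from the group means the r was 0.823 for Pdk4 and 0.819 for Txnip. The uncoupling protein gene Ucp3 had an r of 0.584 (exact permutation p = 0.101), a rho of 0.717 (exact permutation p = 0.0369, adjusted p = 0.283), and an r of 0.163 without the 2 rats. Over the 6 rats with an array on scan day 2 the r was 0.436 for Txnip, 0.866 for Pdk4 and 0.18 for Ucp3. Those 6 leave out the same 2 rats, so these values are not a separate check. The level of overexpressing rat 1 also averages an array of each scan day, so day was not held constant. No slide holds enough rats for a value of its own. Feeding state and hour of sampling are not stated in the labels.

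**Figure D4:**
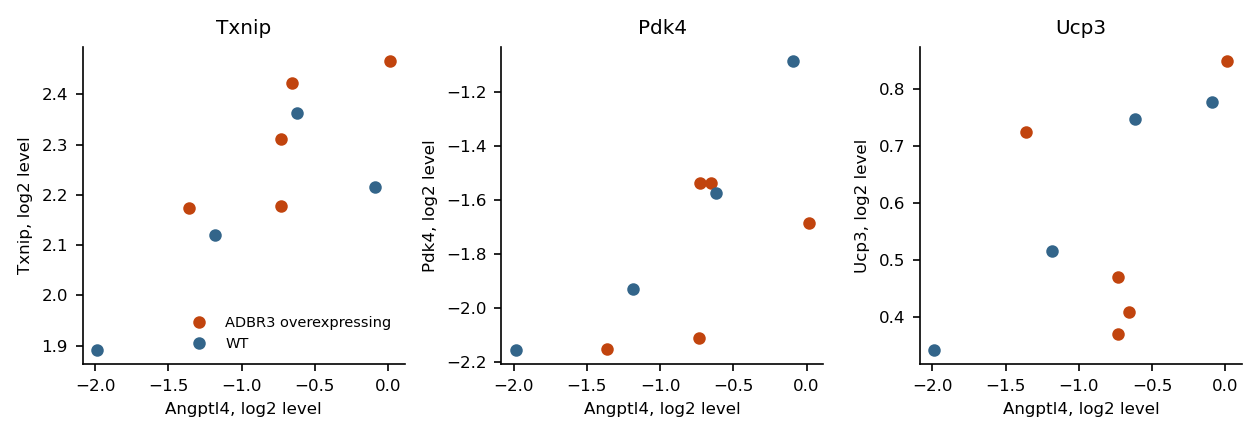
Levels of Txnip, Pdk4 and Ucp3 (y axes) against that of Angptl4 (x axis) in 9 rats, all as log2 signal minus the 75th percentile of the array. Points are ADBR3 overexpressing (orange, n = 5) and WT rats (blue, n = 4), which lie intermixed, with Pearson's r of 0.81, 0.747 and 0.584.

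Markers of the cells that make these proteins gave the following beside the members. Of 17 tested endothelial markers 5 were higher and 12 lower, with a median of -0.034. With limma 0 were past the threshold and 0 had an unadjusted p under 0.05, against 9.44% of all genes. Their mean level lay between 0.30 and 0.49 in overexpressing rats and between 0.38 and 0.50 in WT rats. The groups thus overlapped in this mean level, as they did in Gpihbp1. Pecam1 and Cdh5, which define endothelium, differed by -0.092 and -0.024 and Egfl7 and Tek by -0.18 and -0.23 (limma, adjusted p = 0.72, 0.958, 0.526 and 0.599).

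Of 14 cardiomyocyte markers 5 were higher and 9 lower, with a median of -0.0084. Their mean levels were 7.31 to 7.39 in overexpressing rats and 7.18 to 7.40 in WT rats. At an unadjusted p under 0.05 by limma there were 3, all higher in overexpressing rats, against 3.15% of all genes called higher. Mybpc3 and Ttn, both proteins of the sarcomere, differed by 0.18 and 0.13 (limma, adjusted p = 0.393 and 0.509). The groups were fully apart at Mybpc3, 1 of the 14, beside 3.52% of all genes. Of 18 adipocyte markers 13 were tested, 6 higher and 7 lower, with a median of -0.00097, and their mean level ran from -1.87 in overexpressing rat 7 to -0.099 in overexpressing rat 6, against -1.52 to -0.76 in WT rats. Adipoq, which defines adipocytes, was at -2.88 ± 2.28 in overexpressing rats (SD, n = 5) and -3.10 ± 0.684 in WT rats (SD, n = 4), and Plin1 was well above background on 0 of 7 overexpressing and 0 of 6 WT arrays. Dgat2, an enzyme of triglyceride synthesis, differed by 0.35 and Cidea, a lipid droplet protein, by -0.17 (limma, adjusted p = 0.348 and 0.574). Dgat2 was the 1 of the 13 with an unadjusted p under 0.05 by limma, against 9.44% of all genes.

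Of 14 tested macrophage markers 5 were higher and 9 lower, with a median of -0.105, and their mean level was -0.95 to -0.50 in overexpressing rats and -1.05 to -0.53 in WT rats. Itgam and C1qa differed by -0.26 and -0.19 (limma, adjusted p = 0.562 and 0.591). Of 7 tested blood cell markers 5 were higher and 2 lower, with mean levels of 1.72 to 2.21 in overexpressing rats and 1.75 to 2.57 in WT rats, and Ahsp and Slc4a1 differed by -1.25 and -0.61 (limma, adjusted p = 0.436 and 0.732). By limma 0 of the 14 macrophage and 1 of the 7 blood cell markers, Ahsp, had an unadjusted p under 0.05, against 9.44% of all genes. Whether any of these marker lists has a part in the differences of the 8 genes was not tested.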

How the data were processed

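Per the file headers, the deposited scanner files hold each spot's intensity as Agilent Feature Extraction 10.7.1.1 read it (array design 028279), and the processed signal is background-subtracted and spatially detrended. The deposited table of the authors holds natural log values (r of 0.981 to 0.9866 with the natural log of the processed signal, column medians 5.695 to 5.73). Its scaling is unknown, and it served as an alternative. The labels mark hearts 1 and 2 in both groups as labelings of 1 rat, which were averaged for the main fit. The fits with slide or scan day terms took heart 1, the first labeling, alone. Differences within slides and scan days count each array once, so such a rat can enter there by both labelings. WT heart 5 and overexpressing heart 4 are marked as repeat hybridizations, whose rat is unnamed, and both stayed outside the fit.

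Log2 spot values of each probe, less the 75th percentile, were averaged without outlier spots where another remained. Of 30367 probes, 17587 were well above background in at least 4 of 9 rats. The brightest probe stood for each gene name, giving 15367 genes. The groups were tested in limma 3.58.1 (R 4.3.3) by lmFit with eBayes, at a Benjamini-Hochberg adjusted p of 0.05, and the procedure was tested on simulated data. Plots were drawn with matplotlib 3.10.9. P-values measure the spread between these rats, and the number of arrays limits precision. Alternatives covered scaling, background correction, filter, variance, batch and left-out rats.

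The 8 members and the gene lists were chosen with earlier results of these data known. Named besides the members were up to 3 genes per pathway list and up to 2 per marker list with the smallest unadjusted p, Pecam1, Cdh5, Myh6, Tnnt2, Adipoq and Plin1, and the 3 symbols with the highest r with Lpl and with Gpihbp1. Txnip, Pdk4 and Ucp3 were named after their values were seen. Some genes that this rule picks are not reported here.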

Additional observations from a re-analysis of the deposited data

Results flagged for a closer look

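Among the 18 combinations of a probe and a group, 2 held 1 rat far from the rest by Dixon's test, where chance flags about 1 in 20. For Fabp3 it was WT rat 4, at 7.3545 against 7.474 in the nearest WT rat. The WT replicate hybridization, heart 5, read 7.31. For Fabp4 it was WT rat 6, at 3.3186 against 3.0936 in the nearest WT rat. WT heart 6 was also among the arrays with the fewest spots well above background, at 58.7%.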

How the results depend on the processing

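No member passed under any of the 26 alternatives run (0 members each; limma). The sign of the difference held for Lpl (-0.12 to -0.018), Gpihbp1 (0.15 to 0.57), Slc27a1 (0.091 to 0.17) and Vldlr (-0.38 to -0.18) throughout, with lowest adjusted p values of 0.655, 0.352, 0.392 and 0.251. Of the others, Angptl4 was -0.076 on rats 1, 3 and 6 with or without the heart number as a replicate block and -0.063 without WT rat 4. Cd36 was -0.000465 after quantile scaling alone, -0.0087 after normexp plus quantile scaling, -0.0018 in the table of the authors, -0.0058 with the replicate hybridizations added, -0.017 on rats 1, 3 and 6 with or without the replicate block, and -0.037 to 0.048 when 1 rat was left out (-0.037 without WT rat 3, -0.015 without overexpressing rat 7). Fabp3 was 0.0065 with median scaling, 0.0043 after normexp plus quantile scaling and 0.013 with the replicate hybridizations added. Fabp4 was -0.014 after normexp plus quantile scaling, -0.024 in the table of the authors, -0.026 with slide as a block, and -0.011 to 0.077 when 1 rat was left out (-0.011 without WT rat 3, -0.010 without WT rat 1). The cause of these reversals was not tested. The count of genes past the threshold was 2 with normexp under either scaling and with the authors' values, 8 with a trended, robust variance and with slide as a block, 6 with the replicate hybridizations added, and 0 with scan day as a block. It was 0 on rats 1, 3 and 6 with or without the replicate block, and 0 to 13 when 1 rat was left out (13 without overexpressing rat 3). The heart numbers did not pair the rats, as the correlations of deviations for numbers 1, 3 and 6 were 0.106, 0.0347 and 0.124. Slide as a random block was chosen after seeing the data. Among genes at an unadjusted p under 0.05, 33.4% were higher, against 62.6% with median scaling, which moved the median of all genes to 0.0326. The Vldlr probe is dim, with 161 to 185 units on overexpressing and 157 to 256 units on WT arrays.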
